A study of Mus musculus with 24 samples.

Results

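RNA polymerase II, the enzyme that transcribes the protein-coding genes of the nucleus, is built from subunits encoded by the Polr2 genes. The 10 genes Polr2a to Polr2j were taken by symbol from a table of 27179 genes holding H3K4m3-Seq values of mouse brain, heart, kidney and liver. They were selected on the difference in log2 value between formalin-fixed, paraffin-embedded (FFPE) and frozen tissue, with earlier results of these data in view: Polr2a was higher in FFPE while housekeeping genes were lower. All 10 were in the table and passed the filter on low values, which 25680 genes passed. FFPE against frozen is therefore given for these genes as a description with no test, and tests are given for the organs, which the choice did not use.

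H3K4m3-Seq is ChIP-seq for the trimethyl mark on lysine 4 of histone H3. The labels describe 24 mouse samples, 12 with the H3K4m3 antibody and 12 inputs. Of the antibody samples 4 were from flash-frozen organs and 8 from organs fixed in formalin and embedded in paraffin. The table has 8 columns, called libraries here: frozen brain, frozen heart, frozen kidney, frozen liver, FFPE brain, FFPE heart, FFPE kidney and FFPE liver. The sources used here give no strain, sex, age or treatment of the mice beyond the preservation of the organs. Frozen cores were crosslinked with formaldehyde after freezing and FFPE tissue was deparaffinised and extracted with heat, so preservation and chromatin preparation cannot be told apart. It is not stated if an FFPE column holds 1 FFPE sample or merges both. No label ties a sample to an animal, and no column repeats another of the same organ and preservation. The error behind the p-values therefore comes from how unevenly FFPE differs from frozen tissue over the 4 organs, not from the spread of repeated libraries. The fit also draws the error of each gene towards that of genes of similar level, so it is not the gene's own unevenness alone. Technical variation and a true difference between organs in the effect of preservation both enter this error and cannot be told apart. The descriptions carry a later date for the second FFPE sample of each organ, and the labels name library kits of 2 makers without saying which library used which.

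Trimethylation of lysine 4 on histone H3 is laid down around the start sites of active genes, most strongly at promoters rich in CpG dinucleotides. RNA polymerase II recruits enzymes that deposit the mark through its carboxy-terminal domain, the long repeat tail of the subunit encoded by Polr2a. Because every cell needs the polymerase, its subunit genes are classed as housekeeping genes, and such promoters typically carry the mark in every organ. The value of a gene here is its share of a library's reads, not the amount of the modified histone.

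The promoters are shown first, since the mark is laid down around start sites. The windows used hold only bases before the start site, not the whole marked region. RefSeq promoter windows (GRCm38.p6, the assembly that mm10 denotes) matched 8 of the 10 genes: Polr2a, Polr2b, Polr2c, Polr2e, Polr2f, Polr2h, Polr2i and Polr2j. The 250 bases before the start site are printed for 4 genes whose window overlaps no other RefSeq gene, 2 that were higher on average in FFPE (Polr2a and Polr2e) and 2 that were lower (Polr2c and Polr2j), 5′ to 3′ on the strand of the gene, with each CpG in capitals. They lie at chr11:69758634-69758883 on the minus strand, chr10:80039660-80039909 on the minus strand, chr8:94857200-94857449 on the plus strand and chr5:136116441-136116690 on the plus strand.
Polr2a: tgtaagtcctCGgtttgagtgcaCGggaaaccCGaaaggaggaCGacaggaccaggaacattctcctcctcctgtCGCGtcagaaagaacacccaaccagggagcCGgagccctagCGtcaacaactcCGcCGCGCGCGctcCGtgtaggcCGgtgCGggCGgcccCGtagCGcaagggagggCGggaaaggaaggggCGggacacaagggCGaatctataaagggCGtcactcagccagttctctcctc
Polr2e: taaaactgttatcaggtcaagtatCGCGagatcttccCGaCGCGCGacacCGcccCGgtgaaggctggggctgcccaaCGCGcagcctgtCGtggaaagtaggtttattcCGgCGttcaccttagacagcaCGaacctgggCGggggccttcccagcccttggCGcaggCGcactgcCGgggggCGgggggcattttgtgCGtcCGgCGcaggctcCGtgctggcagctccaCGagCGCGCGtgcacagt
Polr2c: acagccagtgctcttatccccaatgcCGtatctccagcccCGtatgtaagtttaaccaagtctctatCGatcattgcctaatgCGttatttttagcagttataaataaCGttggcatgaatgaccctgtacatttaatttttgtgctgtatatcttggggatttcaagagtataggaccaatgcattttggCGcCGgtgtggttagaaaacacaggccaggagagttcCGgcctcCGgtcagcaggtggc
Polr2j: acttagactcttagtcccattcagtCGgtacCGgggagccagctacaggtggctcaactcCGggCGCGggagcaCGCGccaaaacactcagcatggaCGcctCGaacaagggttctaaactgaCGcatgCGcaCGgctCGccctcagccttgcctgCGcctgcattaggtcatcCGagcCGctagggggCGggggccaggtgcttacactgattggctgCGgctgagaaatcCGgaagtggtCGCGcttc

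The Polr2a window held 23 CpGs, that of Polr2e 27 and that of Polr2j 21, and these dinucleotides are spread along the sequence. Polr2c stood apart with 9 CpGs and a GC content of 45.6%, against 62.8% for Polr2a and 65.6% for Polr2e. The median over 32851 windows of this length was 6 CpGs and a GC content of 52.4%. Of the other matched genes, Polr2f held 24, Polr2i 21 and Polr2b 14, and the more upstream of 2 Polr2h windows held 28. CpG content did not sort the genes by their FFPE value: Polr2a and Polr2f, with 23 and 24 CpGs, were the highest and the second lowest of the 10 in the difference of FFPE from frozen given below.

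Short motifs were counted on both strands of these windows. GGGCGG, the GC box bound by Sp1 and related factors, was in 6 of 8 genes against 32.7% of all windows, and CCAAT, the site of NF-Y, in 3 of 8 against 33.8%. The ETS-type motif CCGGAAG was in Polr2f and Polr2j, against 6.91% of windows. The full palindromic NRF1 site was in none of the 8 and in 0.782% of windows. TATAAA, the core of the TATA box, was in Polr2a and Polr2c, against 12.4% of windows. It begins 33 bases before the start site in Polr2a and 151 bases before it in Polr2c, both on the strand of the gene. The GC box, the ETS-type motif and the NRF1 site each contain a CpG, which is also in the CpG counts; other overlaps between motifs were not looked for. A match is a description of letters, not of binding.

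Reads counted in genes ran from 1792394 in frozen heart to 5275085 in FFPE kidney, and in each organ FFPE had more. An FFPE column may merge samples, so the depth of sequencing is not known. The 10 genes had between 41 reads (Polr2f in frozen heart) and 615 reads (Polr2i in frozen liver) in a library. The counting error is 15.6% at 41 reads and 8.03% at 155 reads, the lowest count of Polr2i. Reads copied from 1 molecule are counted apart, so this error covers counting alone. Most organ markers followed the labels: 7 of 8 brain markers, 4 of 8 heart markers, 6 of 8 kidney markers and all 8 liver markers passed as higher in their organ. The heart marker Ryr2 went against its label: it passed as higher in brain (0.75) and had 0.28 in heart. Other cell types' markers moved with preservation, against a background of 16.5% of all tested genes that passed as higher in FFPE. Genes of low level were higher in FFPE in general, with a median difference of 0.81 for a mean log2 value from 2 to 3. From 3 to 4 it was 0.65, and 91.0% and 86.0% of genes were higher. Some blood and immune markers had few reads, such as Cd3e with 11 to 76 in a library, and the part of level in their values was not tested. For blood and immune cells the summed level of 8 markers was between 75.2 and 102 CPM (reads scaled to a common library size) in frozen libraries and between 118 and 170 CPM in FFPE libraries. Of these 8, 3 of 7 tested passed as higher in FFPE (Ptprc, Cd3e and Cd79a), and the beta globin gene Hbb-bs was at 0 in frozen brain. The summed level of 8 endothelial markers was between 165 and 612 CPM in frozen and between 201 and 740 CPM in FFPE libraries, and 3 of the 8 passed as higher in FFPE (Cdh5, Pecam1 and Tie1). Averaged over 4 organs, organ markers also lay above 0 in FFPE minus frozen. The median difference was 0.71 for 8 heart, 0.62 for 8 kidney, 0.38 for 8 liver and 0.36 for 8 brain markers. It was 0.77 for the blood and immune and 0.34 for the endothelial markers. As higher passed 2 heart, 2 kidney and 1 brain markers, and 1 liver marker passed as lower. In its own organ each summed list was lower in FFPE: 457 against 1464 CPM in liver, 441 against 644 in kidney, 386 against 413 in heart and 616 against 646 in brain. In the other organs each list was higher in FFPE. In bulk tissue a change in cell makeup and a change of the mark within cells cannot be told apart, and the part of these markers in any value below was not tested.

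The catalytic core of the enzyme is formed by the subunits encoded by Polr2a and Polr2b, which together enclose the active site. Polr2a (gene ID 20020, chromosome 11, 69733997 to 69758633) had log2 CPM values of 5.80, 5.27, 5.85 and 5.38 in frozen brain, heart, kidney and liver. In FFPE tissue they were 5.92, 6.18, 6.45 and 6.26 in the same order. Each FFPE library lay above each frozen library, although FFPE brain and frozen kidney were close together. On average Polr2a was 1.54-fold higher in FFPE, a log2 difference of 0.62 ± 0.37 (SD over 4 organs). The difference was 0.91 in heart, 0.88 in liver and 0.60 in kidney, and only 0.11 in brain.

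Polr2b (gene ID 231329, chromosome 5, 77310484 to 77349328) had 6.08, 5.78, 6.10 and 6.22 in the frozen organs on the same log2 scale. Its FFPE values were 5.62, 6.06, 6.12 and 6.11 in the same order of organs. The preservation types overlapped, with FFPE above frozen in heart and kidney and below it in brain and liver. The mean difference was -0.07 ± 0.31 (SD over 4 organs). FFPE brain stood apart as the low library.

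Polr2c and Polr2j encode the pair of subunits that form the assembly platform on which the core is built, related to the alpha subunits of the bacterial enzyme. Polr2c (gene ID 20021, chromosome 8, 94857450 to 94864242) had log2 values of 6.33, 5.88, 6.38 and 6.70 in frozen brain, heart, kidney and liver. In FFPE tissue these were 5.37 in brain, 5.12 in heart, 5.35 in kidney and 5.28 in liver. The groups did not overlap, and the 4 FFPE values were within a narrow band while the frozen ones were spread. Polr2c was 2.06-fold lower in FFPE, a log2 difference of -1.04 ± 0.28. Polr2j (gene ID 20022, chromosome 5, 136116691 to 136122947) had 4.79, 4.86, 5.05 and 5.38 in frozen brain, heart, kidney and liver, and 4.39, 4.30, 4.14 and 4.92 in FFPE. Liver was its highest library in both preservation types. FFPE liver lay above frozen brain and frozen heart, so the groups overlapped, although FFPE was lower in each organ, by -0.58 ± 0.23 on average.

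The stalk, a module of the Polr2d and Polr2g products that binds the emerging RNA, had lower values in FFPE at both genes. Polr2d, which spans 7585 bases, had 5.06, 5.07, 4.82 and 4.68 in frozen brain, heart, kidney and liver. Its FFPE values were 4.21, 4.39, 4.41 and 4.00. All FFPE values lay below all frozen values, with a mean difference of -0.66 ± 0.18, the least variable over organs among the 10 genes. Polr2g (gene ID 67710, chromosome 19, 8793129 to 8798557) had 5.22, 5.45, 5.73 and 6.03 in frozen and 4.87, 4.62, 5.14 and 5.19 in FFPE brain, heart, kidney and liver. Here too the groups did not overlap, though frozen brain and FFPE liver were separated by little. The mean difference was -0.65 ± 0.23.

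Polr2i encodes a small zinc-binding subunit that takes part in start site choice and transcript fidelity. The gene (gene ID 69920, chromosome 7, 30232074 to 30233387) had the largest difference of the 10. Its log2 values were 7.25, 6.94, 7.07 and 7.92 in frozen brain, heart, kidney and liver. In FFPE they were 6.06, 5.57, 5.89 and 6.05. Every FFPE library lay well below every frozen one, and frozen liver stood above the other frozen libraries. Polr2i was 2.63-fold lower in FFPE, at -1.40 ± 0.32, a value below that of all but 0.833% of tested genes.

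The remaining members, Polr2e, Polr2f and Polr2h, encode subunits that RNA polymerase II shares with RNA polymerases I and III. Polr2e (gene ID 66420, chromosome 10, 80035953 to 80039659) had 4.99, 5.23, 5.09 and 5.13 in frozen and 5.08, 5.82, 5.19 and 5.10 in FFPE brain, heart, kidney and liver. The frozen values were the most even of any of the 10 genes, with an SD of 0.0994, and FFPE heart was the one high library. The groups overlapped, and the mean difference was 0.19 ± 0.28. Polr2f (gene ID 69833, chromosome 15, 79141325 to 79151774) had 4.99, 4.55, 5.03 and 4.98 in frozen and 3.50, 4.06, 3.77 and 3.87 in FFPE brain, heart, kidney and liver. Heart was its lowest frozen and its highest FFPE library. The gene was 2.13-fold lower in FFPE, at -1.09 ± 0.43, with no overlap. Polr2h (gene ID 245841, chromosome 16, 20717826 to 20722272) had 5.33, 5.23, 5.61 and 5.73 in frozen and 4.35, 4.74, 4.64 and 4.70 in FFPE, again with no overlap and a mean difference of -0.87 ± 0.25.

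**Figure D1:**
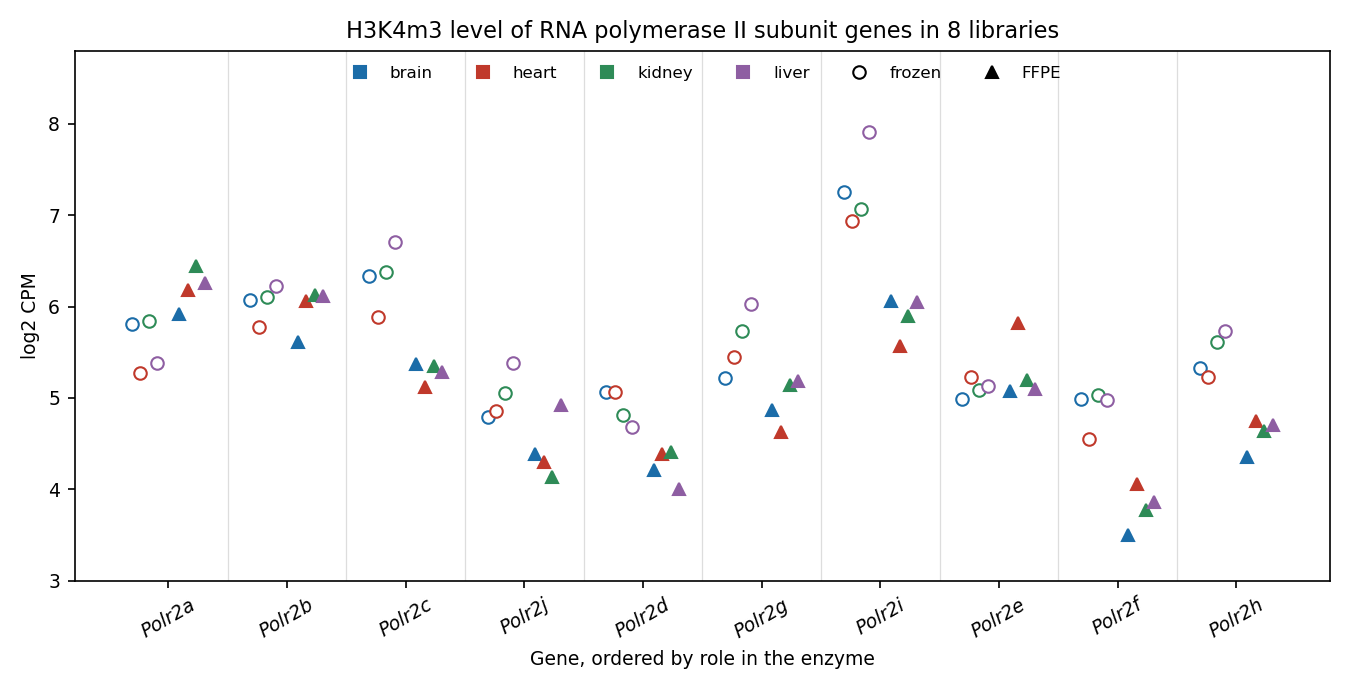
Log2 CPM (vertical axis) of each gene in the 4 frozen (open circles) and 4 FFPE (triangles) libraries, coloured by organ; values are to be compared within a gene, since genes differ in length. FFPE points lie above frozen points for Polr2a, overlap them for Polr2b, Polr2e and Polr2j, and lie below them for the other 6 genes.

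Over the 10 genes, 7 were lower in FFPE in all 4 organs, 1 was higher in all 4 (Polr2a) and 2 differed in sign between organs (Polr2b and Polr2e). Of all tested genes 26.6% were lower and 26.7% higher in all 4 organs. All FFPE libraries lay below all frozen libraries for 6 of the 10 genes, against 17.1% of tested genes, and above them for 1, against 13.1%. Among genes with a mean log2 value of at least 4 these shares were 28.4% and 6.49%. These counts come from the contrast that chose the genes. The median difference of the 10 genes was -0.65, against 0.18 over all tested genes. It was similar in each organ, at -0.66 in brain, -0.52 in heart, -0.75 in kidney and -0.76 in liver.

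**Figure D2:**
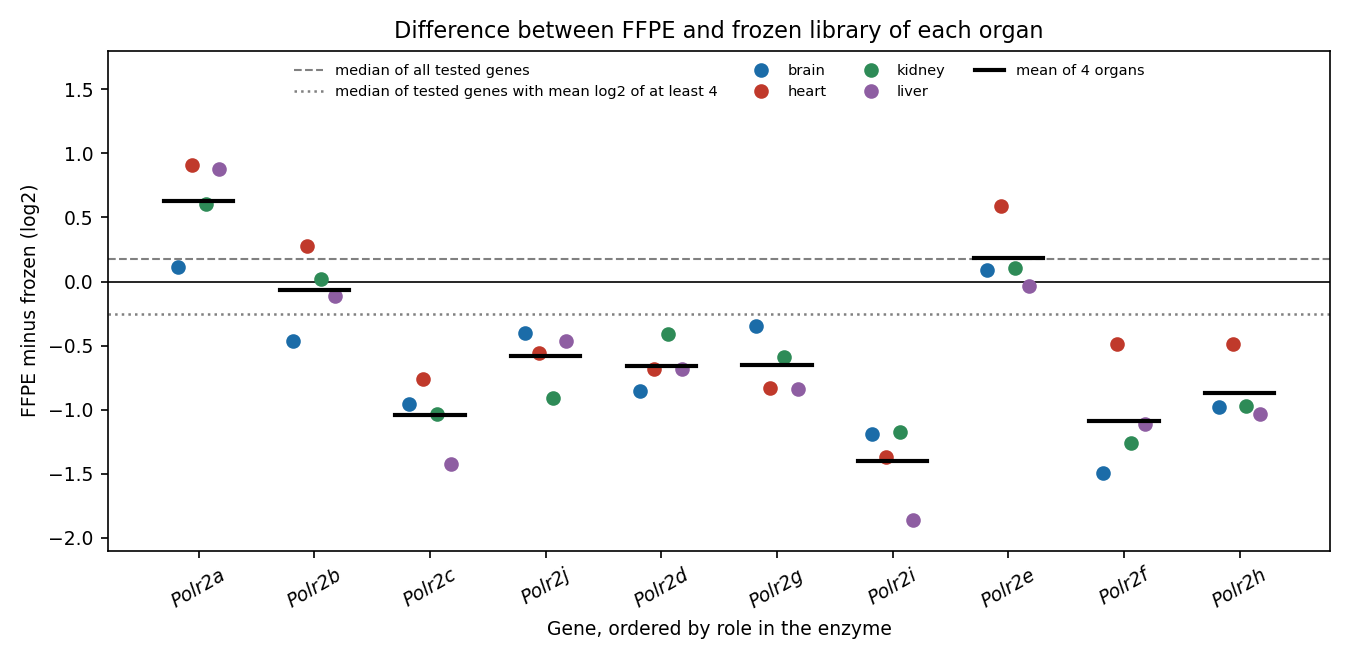
FFPE minus frozen on the log2 scale for each organ (coloured points) and its mean over 4 organs (black bars), with the medians of all tested genes (dashed, 0.18) and of tested genes with a mean log2 value of at least 4 (dotted, -0.26). Polr2a lies above 0 in all 4 organs, while 7 genes lie below 0 in all 4.

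Level and gene length moved with this difference across all genes. Genes with a mean log2 value from 2 to 3 had a median difference of 0.81, those from 4 to 5 one of 0.19, those from 5 to 6 one of -0.31 and those from 6 to 7 one of -0.47. The 10 genes had mean values from 4.34 to 6.59, and 7 of them lay between 5 and 7. Among the 15116 tested genes with a mean of at least 4, the median was -0.26, 43.5% were lower in all 4 organs and 15.2% higher in all 4. Within these genes the difference also differed by gene span: the median was -0.77 for spans of 1 to 3 kb, -0.41 for 3 to 10 kb, -0.30 for 10 to 30 kb and -0.17 for 30 to 100 kb. Over all tested genes the order was the reverse, at 0.38, 0.19, 0.05 and -0.0038 for the same spans. Polr2i spans 1.31 kb, Polr2a 24.6 kb and Polr2b 38.8 kb. Length did not order the genes fully, since Polr2e (3.71 kb) was close to 0 and Polr2f (10.4 kb) was among the lowest. The trend of each library on gene span was also removed, as fitted over all tested genes with a known span. This left Polr2a at 0.78 and Polr2f at -1.03 and took Polr2i from -1.40 to -1.83. The removed trend runs opposite to the one among genes with a mean of at least 4, where the members lie. These values therefore do not show what remains once length is accounted for at the members' level. Windows with 20 to 29 CpGs, the range that holds 6 of the 8 matched genes, belonged to genes with a median difference of -0.35, of which 27.9% were higher in FFPE. Of the members above the median of their level, length and CpG groups, Polr2a had the widest margin. The genes were chosen because Polr2a rose in FFPE, so this rank is a description and supports nothing. The part of each of these features in the value of Polr2a was not tested.

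**Figure D3:**
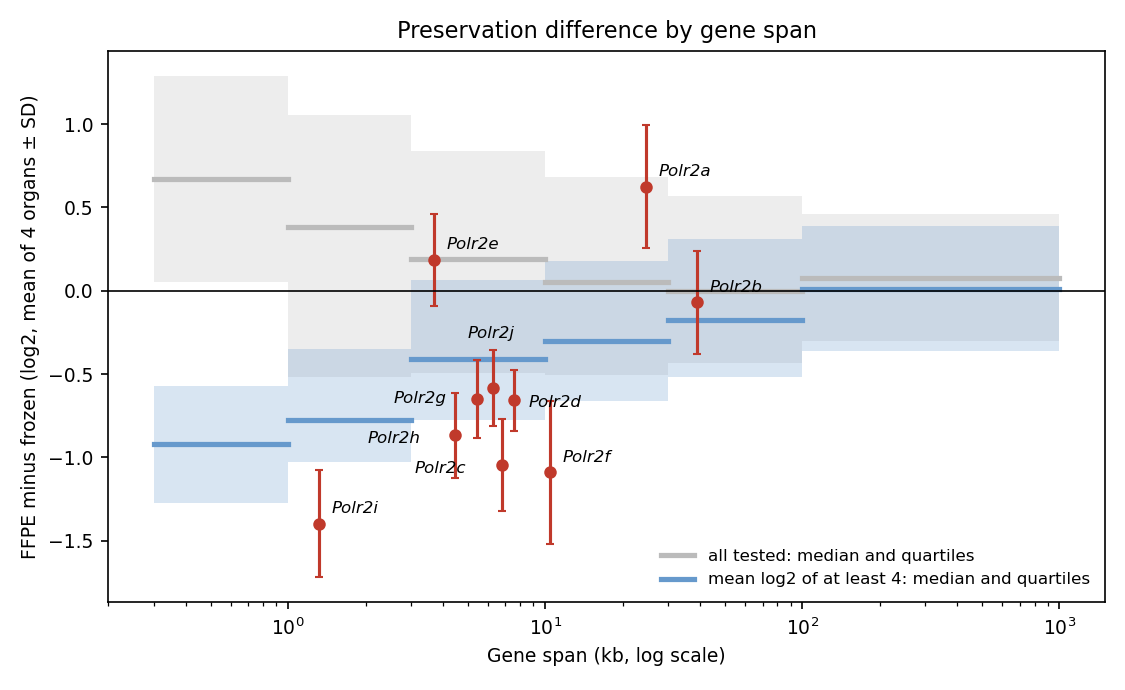
FFPE minus frozen (log2, mean over 4 organs with SD bars) against gene span in kb on a log axis for the 10 genes (red), over the median (lines) and quartiles (shading) of all tested genes (grey) and of tested genes with a mean log2 value of at least 4 (blue); the first and last bins have no outer limit and are drawn to a fixed edge. Polr2a at 24.6 kb lies above the quartiles of the blue genes, and Polr2i at 1.31 kb below them.

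Levels of different genes were compared per kb of gene span, in CPM per kb. In frozen tissue Polr2i was highest at 124 ± 41.0 (SD, 4 organs), with no overlap with the next gene, Polr2c, at 12.0 ± 2.72. Polr2h, Polr2e and Polr2g followed at 10.1 ± 1.65, 9.34 ± 0.643 and 9.18 ± 2.25, and each overlapped its neighbour in this order. Polr2j and Polr2d had 5.26 ± 1.02 and 3.99 ± 0.518, and Polr2f, Polr2a and Polr2b were lowest at 2.86 ± 0.414, 1.97 ± 0.391 and 1.71 ± 0.213. Since the mark sits at start sites, a short gene has a high value per kb, and the part of a gene in which reads were counted is not given. Polr2i also overlaps 2 genes, and reads in the shared bases cannot be told apart.

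In FFPE tissue Polr2i was again highest, at 45.7 ± 6.83, and Polr2e was next at 10.9 ± 2.94, above all libraries of Polr2g at 5.79 ± 1.02. Polr2a, at 3.01 ± 0.453, now stood above Polr2d and Polr2f, and Polr2f was lowest at 1.35 ± 0.214. Polr2a overlapped Polr2d at 2.53 ± 0.323, and Polr2f overlapped Polr2b at 1.64 ± 0.253. The 10 genes were spread more widely in frozen than in FFPE tissue in every organ: the ratio of the highest to the lowest value per kb was 66.7 in frozen and 47.1 in FFPE brain, 65.9 and 22.7 in heart, 57.7 and 34.6 in kidney, and 108 and 36.2 in liver.

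**Figure D4:**
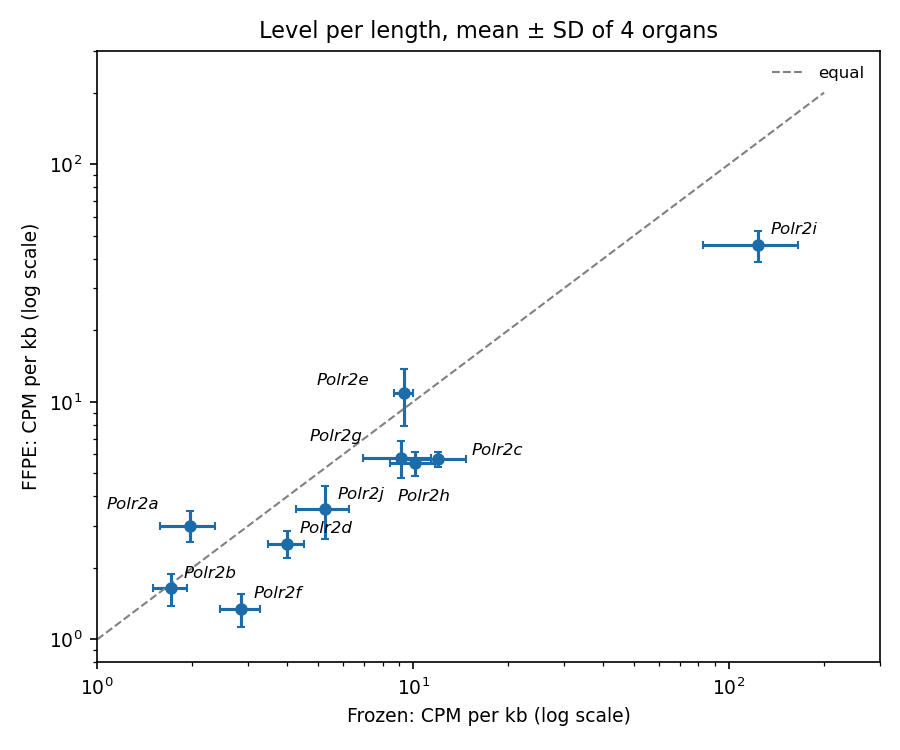
Level per length in CPM per kb, frozen (horizontal) against FFPE (vertical), both on log axes, as mean with SD bars over 4 organs; the dashed line marks equal levels. Polr2a and Polr2e lie above the line, Polr2b close to it and the other 7 genes below it.

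The organs were then compared, a question the choice of the genes did not touch. Differences were tested with limma over all 25680 genes, each organ (2 libraries) against the mean of the other organs (6 libraries), with preservation in the model. None of the 10 genes passed at an adjusted p under 0.05 in any of the 4 comparisons with limma, where 10.1% of tested genes passed in brain, 2.57% in heart, 1.21% in kidney and 9.96% in liver. At an unadjusted p under 0.05, 0 of the 10 genes were found in brain, 1 in heart, 0 in kidney and 2 in liver. A single test for any difference among the 4 organs passed for 14.4% of tested genes and for none of the 10, with a lowest adjusted p of 0.145 for Polr2i. The members' count was thus close to these shares.

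Liver held the largest organ differences. Polr2j was 1.48-fold higher in liver, a log2 difference of 0.56 with a 95% interval from 0.04 to 1.08 (limma adjusted p = 0.187). Polr2i was 1.43-fold higher, at 0.52 with an interval from 0.14 to 0.90 (limma adjusted p = 0.0901). Polr2g had 0.44 with an interval from -0.01 to 0.89, and Polr2d was on the other side at -0.32 with one from -0.86 to 0.22. In frozen tissue alone liver stood above the other organs by 0.83 at Polr2i, and in FFPE by 0.21. For Polr2j these values were 0.48 and 0.64. The median of the 10 genes in liver was 0.22, against -0.01 over all tested genes.

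In heart the values ran from -0.45 for Polr2i, with an interval from -0.84 to -0.07, to 0.43 for Polr2e, with one from -0.04 to 0.89, and Polr2c had -0.40. The Polr2e value was 0.70 in FFPE and 0.16 in frozen libraries. In kidney they ran from -0.18 for Polr2j to 0.34 for Polr2a, whose interval was -0.09 to 0.77. In brain they ran from -0.32 for Polr2g to 0.08 for Polr2i, with Polr2b at -0.22, Polr2h at -0.27 and Polr2f at -0.13. The medians were -0.16 in heart, 0.08 in kidney and -0.16 in brain. Half-widths of the 95% intervals were between 0.38 and 0.62 before adjustment over genes. They rest in part on other genes of similar level. Polr2d, with an SD of 0.18 over organs in FFPE minus frozen, had 0.54, and Polr2i, with an SD of 0.32, had 0.38. A difference above its own half-width also went uncalled, as for Polr2i in liver, and the lack of calls does not show that the organs are alike.

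**Figure D5:**
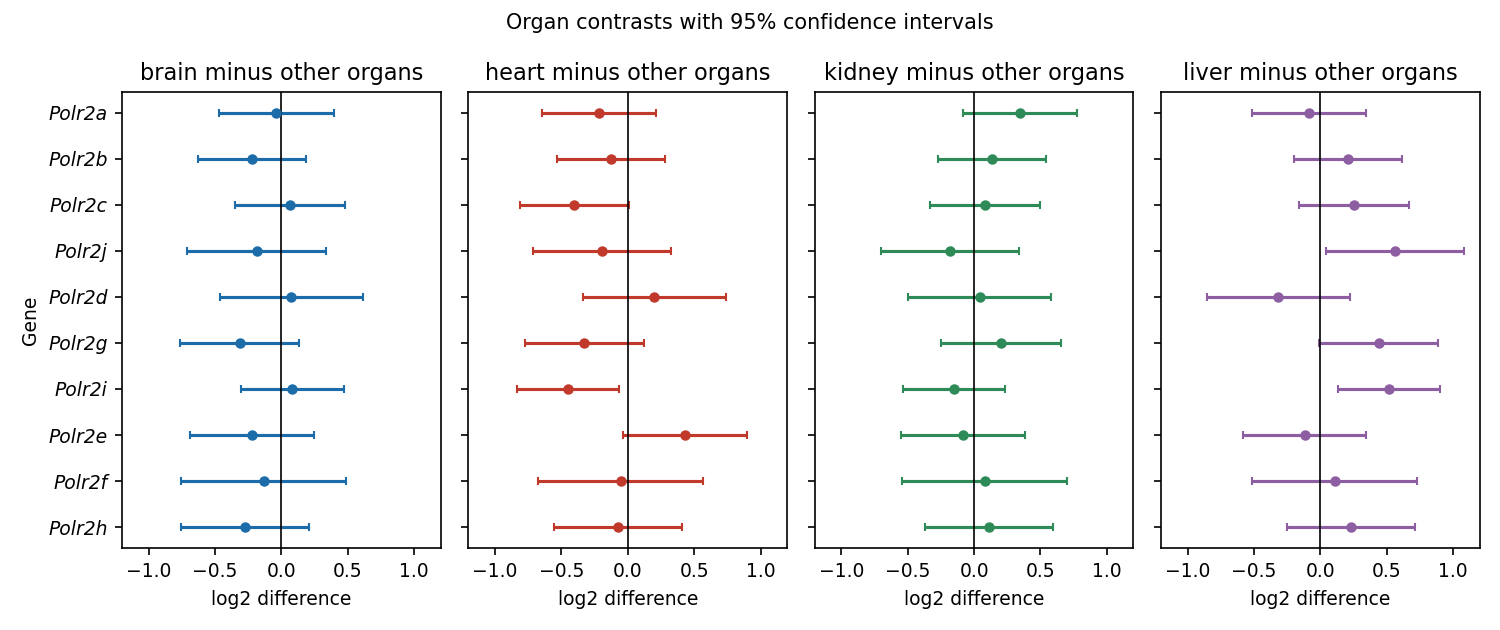
Log2 difference between each organ and the mean of the other organs (horizontal axis, 1 panel per organ) for the 10 genes, with 95% confidence intervals from limma. Most intervals span 0; those of Polr2i in heart and liver and of Polr2j in liver do not before adjustment.

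The range of the 4 organ means had a median of 0.46 over the 10 genes, against 0.78 over all tested genes and 0.58 over those with a mean log2 value of at least 4. The difference between FFPE and frozen was larger than the organ range for 8 of the 10 genes, all except Polr2b and Polr2e, and for 39.8% of all tested genes and 41.6% of those with a mean of at least 4; this count uses the contrast that chose the genes. Polr2f had the smallest organ range, 0.18, and Polr2i the largest, 0.73.

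Without FFPE liver, Polr2i had 0.83 in liver and -0.55 in heart, the only calls among the 10 genes. Liver was then the frozen library alone, with no repeat, and 0.83 is the difference in frozen tissue given above. The number of all genes called in liver was then 4832 in place of 2559, and in heart 2097 in place of 661. Leaving out any other single library gave no call among the 10 genes.

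Genes whose values followed those of Polr2a most closely over the 8 libraries, among 10585 genes with a mean log2 value of at least 5, were Zfp526 (Pearson's r 0.98), Bub1 (0.98), Golgb1 (0.96), Fcgbp (0.96) and Igf2bp1 (0.95). The mean of the other 9 genes was followed by Rmdn3, Lrrc42, Rps16, Stau1 and Lsm4, with r from 0.994 to 0.996. These are descriptions over 8 libraries that share organs and preservation. Between Polr2a and the other 9 genes r ran from -0.80 to 0.23, with a median of -0.67. Among the 36 pairs without Polr2a it ran from -0.53 to 0.98, with a median of 0.71.

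Neighbouring genes can share a promoter or reads, and RefSeq places another gene within 100 bases of, or across, 6 of the 10. Tbcb, a tubulin folding cofactor, overlaps Polr2i by 124 bases and was lower in FFPE in all 4 organs (-1.30), and Ovol3 overlaps it by 91 bases with 0.97. The gene 1700088E04Rik lies 73 bases from Polr2f and was also lower in all 4 organs (-1.67). Noa1, which encodes a mitochondrial GTPase, lies 70 bases from Polr2b and had -0.94, lower in all 4 organs, while Polr2b had -0.07. The chloride channel gene Clcn2 lies 79 bases from Polr2h at -0.26, and Dok4 overlaps Polr2c by 415 bases at 0.14. Polr2d has the noncoding gene Gm26533 44 bases away. The nearest gene to Polr2a, Slc35g3, lies 1250 bases away and was, like Polr2a, higher in FFPE in all 4 organs (0.73); it was added after its value was seen. Lrwd1 lies 118 bases from Polr2j and had -0.56, lower in all 4 organs, and Igfbp7 overlaps Polr2b by 89 bases at -0.69. Polr2e and Polr2g have no neighbour within 1500 bases.

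The wider transcription machinery was read from lists chosen without regard to how their genes moved, though with earlier results known. Of the 3 other Polr2 genes, Polr2k and Polr2m fell in FFPE, at -0.96 ± 0.18 (SE, limma adjusted p = 0.00144) and -0.70 ± 0.17 (adjusted p = 0.00606). Polr2l, a further subunit shared by the 3 polymerases, had 0.12 and differed in sign between organs, with 0.81 in heart and -0.33 in liver. None of the 3 passed in an organ comparison.

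In FFPE against frozen 21.3% of all tested genes passed as lower and 16.5% as higher, and among those with a mean log2 value of at least 4 these shares were 35.4% and 11.4%. Of 8 RNA polymerase I subunit genes 3 fell and 0 rose, with a median of -0.42: Twistnb by 1.16, Znrd1 by 0.99 and Polr1c by 0.71 on the log2 scale. Of 11 RNA polymerase III genes 5 fell, among them Polr3d at -1.14 and Crcp at -0.60, and Polr3b rose by 0.85, with a median of -0.30. General initiation factors, which place the polymerase at the start site, fell for 18 of 31 genes with a median of -0.59, led by Gtf2e2 of TFIIE at -1.01, the TFIIH helicase gene Ercc3 at -0.83 and Taf5 of TFIID at -0.90. Mediator, the bridge between activators and the polymerase, had 17 of 32 genes lower and 2 higher, with a median of -0.49. The higher ones were the kinase module genes Med13l, at 0.67, and Med13, at 0.55, each named after its value was seen. Its smallest p-values belonged to Med30 at -1.50, Med11 at -1.09 and Med27 at -1.05.

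Elongation factors fell for 16 of 27 genes, with a median of -0.47, among them Eaf2 at -1.33, Tcea1, which encodes the cleavage-stimulating factor TFIIS, at -1.04 and Ell2 at -0.80. Genes for assembly of the polymerase and for phosphatases of its carboxy-terminal domain fell for 10 of 13, with a median of -0.61. These included the phosphatase gene Ssu72 at -1.40, the GTPase gene Gpn2 at -0.89 and Ctdp1 at -0.79. The 15 housekeeping genes, whose direction was also part of the choice, are given without a test: 12 were lower in all 4 organs, none was higher in all 4, and the median was -0.49.

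Organ differences passed for 3 of 125 genes of these lists, housekeeping genes aside, in brain (2.4%), 0 in heart, 1 in kidney (0.8%) and 5 in liver (4%), against 10.1%, 2.57%, 1.21% and 9.96% of all tested genes. In liver Nelfe, a subunit of the pausing factor NELF, was 1.76-fold higher (limma adjusted p = 0.0113), Med26 1.68-fold, Aff4 of the super elongation complex 1.54-fold and Rprd1b 1.51-fold higher, and Med13l was lower at -0.66. In brain Ell2, Ell3 and the phosphatase gene Ctdsp1 were lower at -0.66, -0.75 and -0.65. In kidney Polr3e was 2.20-fold higher (adjusted p = 0.00735). Of the 15 housekeeping genes, B2m, which encodes the light chain of MHC class I, was 2.73-fold lower in brain (adjusted p = 0.00211), and the translation genes Eef1a1 and Rpl13a were 2.14-fold and 1.79-fold higher in liver (adjusted p = 0.00508 and 0.0312). No gene of these lists passed in heart, and none of the 31 initiation genes or 8 RNA polymerase I genes passed in any organ with limma.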

How the data were processed

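Chromatin from mouse organs was immunoprecipitated for H3K4m3 and sequenced. Per the submitters' processing notes, Bowtie2, featureCounts, limma and the build mm10 were used; the sources used here give neither versions nor the counted part of each gene. The authors deposited log2 values per gene, of the form log2 CPM with 0.5 added to each read count, on a scaled library size. Whole reads were recovered to within 0.001 for 100% of values. The columns name no antibody and were read as H3K4m3 from the titles of the table and series.

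Genes with a mean log2 value of at least 0 were fitted with limma 3.58.1 in R 4.3.3 (organ plus preservation, empirical Bayes with an intensity trend, 3 residual degrees of freedom, Benjamini-Hochberg adjustment over all tested genes, threshold 0.05). The subset with a mean log2 value of at least 4 was chosen after seeing the data and only describes. The fit was tested on simulated reads with changes set in brain alone and no effect of preservation. That test does not cover the spread of the real libraries. SDs over 4 organs are of differences or levels and hold organ differences. Spans and start sites are from RefSeq (GRCm38.p6), in which 25275 gene IDs matched. The genes and lists were chosen with earlier results of these data known. Named genes outside the 10 are, per list and comparison, up to 3 with the smallest p among those past the threshold, the 5 closest in pattern, and neighbours by RefSeq span within 1500 bases, which replaced a planned rule on start sites and strand because the gene table gives no strand; exceptions are named as such, and 1 gene that the rule names is not reported here. Alternatives were no filter, quantile normalization, median centring, precision weights, no variance trend, removal of the trend on gene span, no organ term and leaving out each library.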

Additional observations from a re-analysis of the deposited data

Results flagged for a closer look

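In 4 of 30 groups of 4 values looked at for the 10 genes, 1 value lay far from the others (a gap to the nearest value above Dixon's 95% critical share of the group's range); chance flags about 1 in 20 such groups. These were Polr2b in FFPE brain (log2 value 5.62), Polr2e in FFPE heart (5.82), Polr2f in frozen heart (4.55) and the FFPE minus frozen difference of Polr2h in heart (-0.49). Heart was the organ concerned in 3 of the 4.

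For 2 genes the difference between FFPE and frozen tissue had opposite signs in different organs. Polr2b differed by -0.46 in brain and -0.11 in liver, and by 0.28 in heart and 0.0186 in kidney. Polr2e differed by 0.59 in heart, 0.10 in kidney and 0.0904 in brain, and by -0.0383 in liver. With 1 library of each preservation type per organ these differences were not tested.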

How the results depend on the processing

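The cause of each change here was not tested unless named. Median centring and quantile normalization took the median difference of all tested genes from 0.18 to 0.0391 and 0.00297, and higher calls from 43.6% to 32.7% of FFPE calls with centring, and to 48.7% with quantile normalization and 50.2% without the variance trend. Polr2b, at -0.07, turned to 0.33 after quantile normalization and 0.0872 with the length trend removed; without a single library it ran from -0.18 to 0.0610, positive without either brain library. Polr2c moved to -0.70 and Polr2i to -0.92 after quantile normalization, and Polr2i to -1.83 with the length trend removed. Every member but Polr2b kept its sign in every alternative, on the contrast that chose the genes. Removing the filter, the variance trend or the organ term cannot change these differences. Leaving out either library of an organ gives the same value. Calls among the 10 genes in the organ comparisons were 0 in every alternative except leaving out a library, where they ran from 0 to 2, the latter without FFPE liver. Of all 40 organ differences of the members, 17 changed sign without at least 1 library and 3 under another alternative. Among the 14 followed in detail (each gene's largest and each organ's extremes) these were, without a library, Polr2b in brain (-0.48 to 0.0409), Polr2f in brain (-0.40 to 0.14), Polr2i in brain (-0.0569 to 0.22) and Polr2j in kidney (-0.40 to 0.0395).

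Counts of all genes called were 2583 in brain, 661 in heart, 310 in kidney, 2559 in liver, 3707 for any organ and 9717 for FFPE. Without the variance trend they were 217 in brain and 0 in heart, kidney, liver and for any organ with limma (at an unadjusted p under 0.05: 3295, 2066, 4715 and 5008). With the length trend removed they were 1289, 42, 26, 809 and 1142. Quantile normalization gave 1382 in heart and 838 in kidney, precision weights 429 in heart, no filter 201 in kidney, and no organ term 6182 for FFPE. Leaving out 1 library gave 326 (frozen brain) to 4291 (FFPE liver) in brain, 2 (frozen heart, 1810 at an unadjusted p under 0.05) to 2097 (FFPE liver) in heart, 0 (frozen kidney, 557 at an unadjusted p under 0.05) to 1033 (FFPE liver) in kidney, 464 (frozen liver) to 4832 (FFPE liver) in liver, 1509 (frozen brain) to 6202 (FFPE liver) for any organ and 6063 (FFPE kidney) to 8633 (FFPE liver) for FFPE. Other single libraries whose absence moved a count over 1.5 times were FFPE brain in brain (1598); in heart FFPE brain (256), frozen brain (350), FFPE heart (213), FFPE kidney (250), frozen kidney (185) and frozen liver (1285); in kidney frozen brain (133), FFPE heart (205), frozen heart (128), FFPE kidney (167) and frozen liver (847); in liver frozen brain (1435), frozen heart (1492) and frozen kidney (1499); and for any organ frozen heart (2427) and frozen kidney (2397), and for FFPE frozen kidney (6082). Depth limits Polr2f most, with 41 reads in frozen heart. No paired analysis was possible because the columns carry no replicate numbers to pair on; the organ term already sets FFPE against frozen within each organ.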
